A study of Mus musculus with 3 samples.

Results

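NRF2, encoded by Nfe2l2, is the transcription factor that switches on genes against oxidants, and 10 genes were followed here: Nfe2l2 itself and 9 genes known as its targets, Nqo1, Hmox1, Gclc, Gclm, Srxn1, Txnrd1, Osgin1, G6pdx and Gsr. They were taken by name from a table of 56833 genes, all 10 were present, and all 10 passed the minimum used for every count of genes below, an average over the libraries of 50 normalized counts or more, which 11873 genes reached. The names were selected on the normalized counts of these same 3 libraries, so the values below describe these genes and test nothing.

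Cells were sorted for the tdTomato reporter from the ankle synovium, the lining tissue of the joint, of Efhd1CreER; Ai9 mice. In these mice a Cre recombinase that becomes active with tamoxifen is made under control of Efhd1 and switches on tdTomato from Ai9, a reporter allele, so that the label marks cells that used Efhd1 and their progeny, and every library carries both alleles. The cells, which the labels call telocytes, an interstitial cell type with long thin extensions, then spent 24 h on plates coated with collagen, whose stiffness was 0.2 kPa (soft), 8 kPa (intermediate) or 64 kPa (stiff). By its title the study is about matrix stiffness and the differentiation of telocytes into fibroblasts. Each level had 1 library, so differences between cultures and differences between stiffness levels cannot be told apart, no p-value can be given, and each interval below covers counting error only. The labels state neither the age or number of the mice nor whether the 3 cultures came from the same sort.

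In unstressed cells NRF2 protein is held by KEAP1, an adaptor that passes it to a CUL3 ubiquitin ligase for destruction. Oxidants and electrophiles modify KEAP1, NRF2 then accumulates, pairs with a small MAF protein and binds antioxidant response elements near its targets, while BACH1 competes for the same elements. Because this control acts on the protein, the RNA of Nfe2l2 need not follow the activity of the factor. The targets make and recycle glutathione and thioredoxin, supply NADPH, and detoxify quinones and heme. Fibroblasts and macrophages of the joint both use this pathway.

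Where 3 values stand together below, they belong to 0.2, 8 and 64 kPa in that order. The libraries held 25487064 (soft), 28081600 (intermediate) and 26474862 (stiff) reads. Of 11 fibroblast and telocyte markers 9 passed the minimum, and they were mixed between stiff and soft, with 5 above and 4 below 0. Of all 11873 genes 6064 lay above and 5809 below 0. The highest ratio of the 9 was that of Col1a1, a chain of type I collagen, at 0.95 (0.46 with genes of like length and GC content subtracted). The lowest was that of Dcn, decorin, at -0.44. The median of the 9 was 0.12, and that of 3 mural cell markers was 0.53. Both were smaller, at 0.00 and 0.03, after subtracting the median ratio of genes of like length and GC content, called the length and GC trend below. Efhd1 itself had 10, 5 and 3 reads. RNA of macrophage markers was present in every library: the summed level of 12 of them was 28548, 35126 and 61543 normalized counts at 0.2, 8 and 64 kPa, and none was at 0. No erythroid marker of 5 had a read, and the summed endothelial, skeletal muscle, keratinocyte, and T, NK and mast cell markers reached at most 69.7 normalized counts in any library.

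The stretch of DNA just before a transcription start bears on these genes because NRF2 acts through short sequence elements. RefSeq promoters (250 bases before the start, table build GRCm38.p6) were at hand for 7 of the 10 genes, as 9 starts; Hmox1, Gclc and Gsr were not in the table. Both strands were searched for TGANTCAGC, the form bound by NRF2 with a small MAF protein, for TGACNNNGC, the core of the antioxidant response element, and for TGANTCA, the AP-1 element, which lies inside every TGANTCAGC. A match is a description of the letters and not a binding site. The longer motif stood before 2 of the 9 starts, those of Osgin1 and Srxn1, and before 1.02% of all 32851 starts in the table. Both runs are shown because they carry this motif, here in capitals, and each ends just before the next annotated exon.
Osgin1: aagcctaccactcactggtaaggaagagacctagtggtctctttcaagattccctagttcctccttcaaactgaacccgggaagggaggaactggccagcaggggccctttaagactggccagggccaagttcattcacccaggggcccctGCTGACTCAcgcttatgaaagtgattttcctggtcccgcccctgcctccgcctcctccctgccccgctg
Srxn1: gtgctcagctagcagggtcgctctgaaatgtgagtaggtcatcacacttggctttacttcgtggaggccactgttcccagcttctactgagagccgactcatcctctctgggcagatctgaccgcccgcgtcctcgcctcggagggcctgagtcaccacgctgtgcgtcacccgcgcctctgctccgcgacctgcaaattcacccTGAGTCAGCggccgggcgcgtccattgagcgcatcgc

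By an exact match to GRCm39 the Osgin1 run lies at chr8:120163636-120163855 on the plus strand. It stands before the RefSeq start but inside the GENCODE gene, which begins further upstream, at 120152470. Its motif is written on the opposite strand and begins 99 bases before the RefSeq start. The Srxn1 run lies at chr2:151947194-151947435 on the plus strand, with the motif on the gene's own strand, beginning 45 bases before the RefSeq start. Srxn1 also held a second AP-1 element that begins 102 bases before the start.

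The shorter core, TGACNNNGC, stood before 4 of the 9 starts and before 10.2% of all starts in the table. Its matches are shown in capitals with 10 bases on either side, for comparison with the longer motif above; on the strand of the gene those of Gclm, Txnrd1 and G6pdx read as the reverse complement.
Nfe2l2: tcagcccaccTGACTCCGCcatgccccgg
Gclm: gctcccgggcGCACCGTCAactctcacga
Txnrd1: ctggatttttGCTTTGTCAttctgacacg
G6pdx: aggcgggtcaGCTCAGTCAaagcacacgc
On GRCm39 these windows lie at chr2:75535229-75535257 (minus strand), chr3:122039062-122039090 (plus strand), chr10:82694938-82694966 (plus strand) and chrX:73472525-73472553 (minus strand), in the order shown. The window of Txnrd1 stands before 1 of its 3 RefSeq starts and lies inside the GENCODE gene, which begins upstream at 82669785. That of G6pdx also lies inside the GENCODE gene and overlaps 7 annotated exons. For Nqo1 these 250 bases held no match to any of the 3 patterns, which says only that those letters are not in this window.

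Between the stiff and the soft library the 10 genes parted. Hmox1, Txnrd1 and Osgin1 were higher in the stiff library by a log2 ratio of at least 0.5 (log2 of the normalized counts after adding 1), and Nqo1 was lower by at least 0.5. Among all 11873 genes 11.8% were higher and 3.77% lower by that much. Txnrd1 fell short of 0.5 when the libraries were scaled to total reads or to the upper quartile (0.46 in both), and Nqo1 did with the length and GC trend subtracted (-0.43). Only Osgin1 reached a log2 ratio of 1, which 3.22% of all genes did upward and 0.387% downward. The median over the 10 genes was 0.33, beside 0.00 over all genes. Of the 10, 7 lay above and 3 below 0, beside 6064 above and 5809 below of all 11873 genes.

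In the comparison of the intermediate with the soft library Osgin1 was the only one at a log2 ratio of at least 0.5, a size that 3.94% of all genes reached upward and 0.657% downward, and none reached 1, against 0.16% upward and 0.00842% downward of all genes. The median over the 10 genes was -0.02, beside 0.01 over all genes. For most of the 10 genes the larger difference lay between 8 and 64 kPa, where the median was 0.41, beside 0.01 over all genes. Nfe2l2 (0.25, then -0.22) and Gclc (-0.11, then 0.01) differed more from soft to intermediate. So did Srxn1 with the trend subtracted (-0.26, then 0.20). Between 8 and 64 kPa Hmox1, Txnrd1 and Osgin1 were higher by at least 0.5, as were 5.42% of all genes. None of the 10 was lower by as much, as were 3.42% of all genes. Txnrd1 was under 0.5 when scaled to total reads (0.48) or to the upper quartile (0.49), and Gclm was past it after subtraction of the trend (0.54). None reached 1 in either direction, against 0.825% higher and 0.421% lower of all genes. The 3 comparisons share libraries and are not independent of each other.

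**Figure D1:**
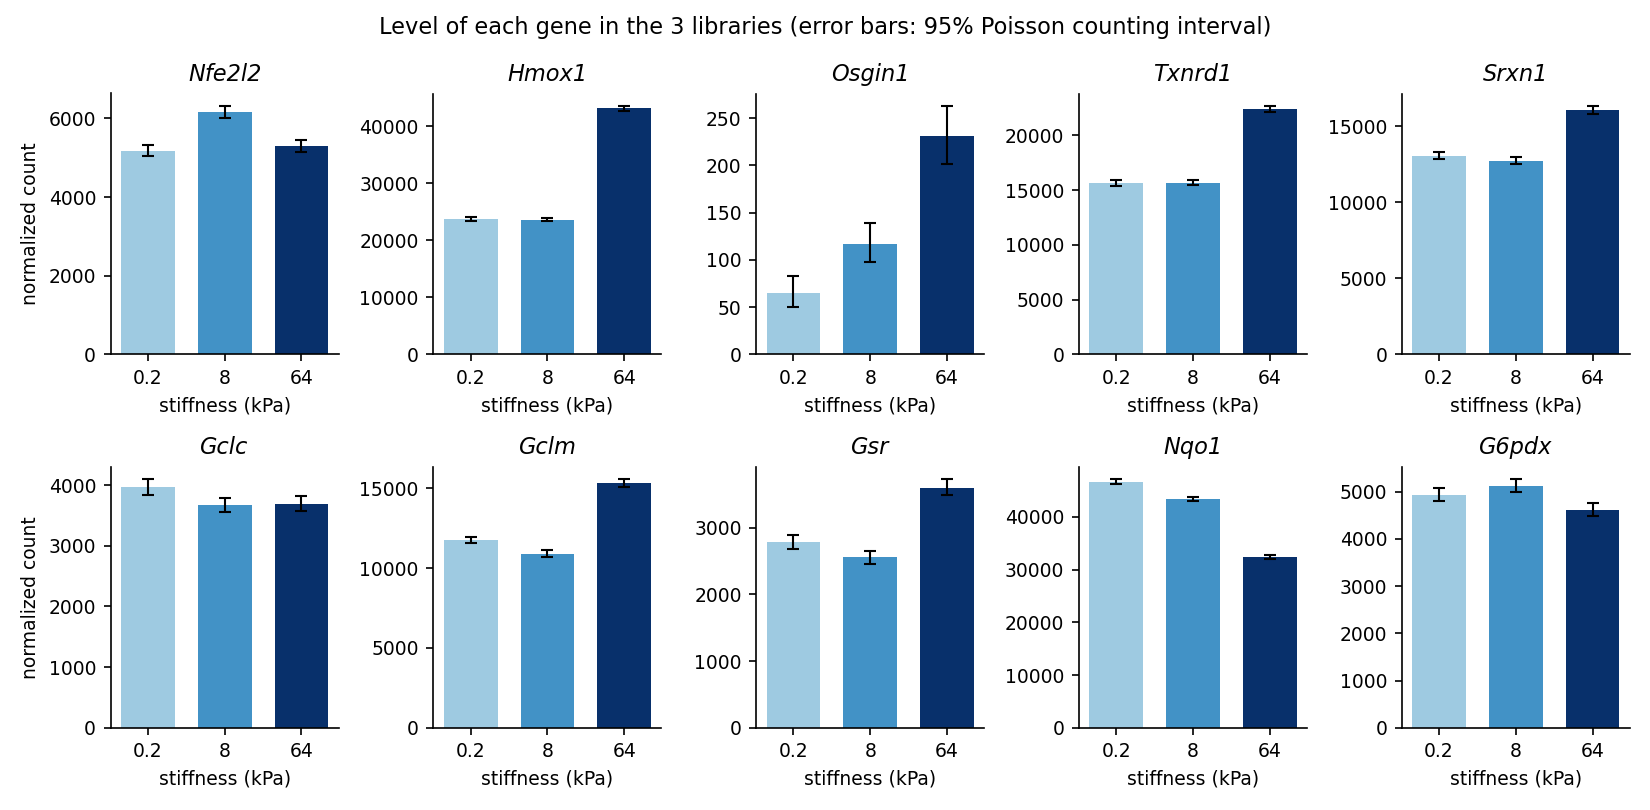
Normalized counts (vertical axes, each from 0 and on its own scale) of the 10 genes in the single libraries from 0.2, 8 and 64 kPa (horizontal axes); error bars are exact 95% Poisson intervals of the read count and hold no variation between cultures. Osgin1 is higher at each level, Hmox1 and Txnrd1 are level between 0.2 and 8 kPa and higher at 64 kPa, and Nqo1 is lowest at 64 kPa.

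Nfe2l2, on chromosome 2 at 75504739 to 75534985 (minus strand, GRCm39, GENCODE vM39 here and below; 5 exons in the canonical transcript), stood at 5174, 6164 and 5300 normalized counts at 0.2, 8 and 64 kPa. The RNA of the factor was thus highest on the intermediate plate. The log2 ratio was 0.25 from soft to intermediate (counting interval 0.20 to 0.31) and -0.22 from intermediate to stiff (-0.27 to -0.17). Soft and stiff differed by 0.03, an interval from -0.02 to 0.09 that includes 0, and by -0.02 when the libraries were scaled to their total reads. With the length and GC trend subtracted it was 0.07.

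Hmox1, heme oxygenase 1, cleaves heme to biliverdin, iron and carbon monoxide. It lies on chromosome 8 at 75820241 to 75827217 (plus strand, 5 exons). Its level was 23679, 23598 and 43112 normalized counts at 0.2, 8 and 64 kPa, so the soft and intermediate values were close and the stiff value stood apart. The stiff to soft ratio was 1.82-fold, a log2 ratio of 0.86 (0.84 to 0.89), above 95.4% of all genes. From soft to intermediate it was -0.00 (-0.03 to 0.02).

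Macrophages degrade heme with the same enzyme, and macrophage markers were higher in the stiff library as well. Of 12 markers 11 passed the minimum, 9 of these 11 were higher in the stiff than in the soft library by at least 1 on the log2 scale, beside 3.22% of all genes, and their median log2 ratio was 1.25. The macrophage lysozyme Lyz2 had 18362, 21482 and 39173 normalized counts at 0.2, 8 and 64 kPa. From soft to intermediate, where Hmox1 was level, all 11 markers lay above 0, as did 6348 of all 11873 genes. The median of the markers in that step was 0.44, with Lyz2 at 0.23. From intermediate to stiff their median was 0.82, beside 0.87 for Hmox1. Cd163, the receptor for hemoglobin bound to haptoglobin, had 2, 5 and 9 reads. The part of macrophage RNA in the values of Hmox1 and the other 9 genes was not tested, and in bulk RNA fewer cells of a type and less RNA per cell cannot be told apart.

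Osgin1, oxidative stress induced growth inhibitor 1, was the least abundant of the 10 genes. It lies on chromosome 8 at 120152470 to 120173000 (plus strand, 6 exons). It had 63, 124 and 225 reads at 0.2, 8 and 64 kPa, or 64.6, 117 and 231 normalized counts, higher at each step. The stiff to soft ratio was 3.53-fold, a log2 ratio of 1.82 with a wide interval, from 1.43 to 2.26, above the ratio of 99.7% of all genes. The steps were 0.85 (0.41 to 1.32) and 0.97 (0.66 to 1.31). It was the only one of the 10 that was higher by at least 0.5 in both steps, as were 1.04% of all genes. None of the 10 was lower by at least 0.5 in both steps, as were 0.0421% of all genes. At a minimum mean of 200 Osgin1 leaves the count, since its mean was 137.

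Among the 10 genes, both of those in the thioredoxin branch had their highest value on the stiff plate. Thioredoxin genes outside the 10 were mixed between stiff and soft. Txn1 was at -0.09 (0.02 with the length and GC trend subtracted) and Txnrd2 at -0.14, while Txn2 was at 0.11 and Txnrd3 at 0.20. Txnrd1, cytosolic thioredoxin reductase, returns thioredoxin to its reduced form with NADPH, and lies on chromosome 10 at 82669785 to 82733546 (plus strand, 14 exons). Its levels were 15635, 15689 and 22400 normalized counts at 0.2, 8 and 64 kPa. Soft and intermediate were alike within counting error, at a log2 ratio of 0.01 (-0.03 to 0.04), which was -0.01 when scaled to total reads. Stiff to soft was 0.52 (0.49 to 0.55) and stiff to intermediate 0.51 (0.48 to 0.54).

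Srxn1, sulfiredoxin, repairs overoxidized peroxiredoxins. It lies on chromosome 2 at 151947436 to 151957687 (plus strand, 2 exons) and stood at 13077, 12756 and 16094 normalized counts at 0.2, 8 and 64 kPa. The stiff to soft log2 ratio was 0.30 (0.27 to 0.33), made up of -0.04 from soft to intermediate and 0.34 (0.30 to 0.37) from intermediate to stiff. Its transcript is the longest of the 10, at 7203 nt, with 52.3% GC, and ratios moved with length and GC content across genes: over 11630 genes, which are not independent replicates, the stiff to soft ratio had a Spearman correlation of 0.26 with each. The 300 genes nearest to Srxn1 in both had a median ratio of 0.35, and with that subtracted the ratio of Srxn1 was -0.05. The steps became -0.26 from soft to intermediate and 0.20 from intermediate to stiff. The direction for Srxn1 thus depends on this subtraction. For the other 9 genes the median of such neighbours lay between -0.10 and 0.10.

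The glutathione branch was uneven. Glutathione synthesis begins with glutamate-cysteine ligase, made of the catalytic subunit Gclc and the modifier subunit Gclm. Gclc (chromosome 9, 77661797 to 77701770, plus strand, 16 exons) stood at 3965, 3666 and 3694 normalized counts at 0.2, 8 and 64 kPa, highest on the soft plate by a small margin. Its stiff to soft log2 ratio was -0.10 (-0.17 to -0.04), and intermediate and stiff differed by 0.01 (-0.05 to 0.08), or -0.03 when scaled to total reads. Gclm (chromosome 3, 122039126 to 122065061, plus strand, 7 exons) had 11754, 10896 and 15296, highest on the stiff plate, and a ratio of 0.38 (0.34 to 0.42). Its step from intermediate to stiff was 0.49 (0.45 to 0.52), after -0.11 (-0.15 to -0.07) from soft to intermediate.

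The subunits of the same enzyme therefore differed. Within a library, where no scaling enters, there were 2.96, 2.97 and 4.14 Gclm reads per Gclc read at 0.2, 8 and 64 kPa. The log2 change of that ratio from soft to stiff was 0.48, with an approximate counting interval of 2 standard errors from 0.41 to 0.56. Gsr, glutathione reductase, which restores glutathione from its oxidized form, lies on chromosome 8 at 34142551 to 34188192 (plus strand, 13 exons). It had 2787, 2557 and 3600 normalized counts, lowest on the intermediate plate, and its stiff to soft log2 ratio was 0.37 (0.30 to 0.44). Like Gclm it was lower from soft to intermediate, by -0.12 (-0.20 to -0.05), and higher from intermediate to stiff, by 0.49 (0.42 to 0.57).

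Nqo1, NAD(P)H quinone dehydrogenase 1, reduces quinones and is among the best known NRF2 targets. It lies on chromosome 8 at 108113835 to 108129934 (minus strand, 6 exons). It was the most abundant of the 10 genes in the soft library, and its levels were 46684, 43466 and 32455 normalized counts at 0.2, 8 and 64 kPa, lower at each step. The stiff to soft log2 ratio was -0.52 (-0.55 to -0.50), a change of -30.5%, and 3.36% of all genes had a lower ratio. Most of it lay between intermediate and stiff, at -0.42 (-0.44 to -0.40), with -0.10 (-0.12 to -0.08) between soft and intermediate. Its value with the length and GC trend subtracted was -0.43.

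Hmox1 and Nqo1 thus went in opposite directions. There were 0.507, 0.543 and 1.33 Hmox1 reads per Nqo1 read at 0.2, 8 and 64 kPa, a log2 change of 1.39 from soft to stiff (approximate interval 1.36 to 1.42). Txnrd1 reads per Nqo1 read were 0.335, 0.361 and 0.690, a change of 1.04 (1.01 to 1.08). These ratios within a library do not depend on how the libraries were scaled.

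G6pdx, glucose-6-phosphate dehydrogenase, makes NADPH in the first step of the pentose phosphate pathway. It lies on chromosome X at 73449857 to 73472819 (minus strand, 13 exons) and had 4934, 5123 and 4615 normalized counts at 0.2, 8 and 64 kPa, lowest on the stiff plate. The stiff to soft log2 ratio was -0.10 (-0.16 to -0.04), and -0.20 once the length and GC trend was subtracted. The step from intermediate to stiff was -0.15 (-0.21 to -0.09). The gene overlaps Ikbkg, which lies on the opposite strand and had 5144, 5231 and 5225 reads. Library preparation kept strand, but the strand setting of the counting is not given in the sources used here, so reads of the overlap may be shared. Its copy G6pd2, 93.2% identical over 2332 aligned nt, had 2, 1 and 0 reads.

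**Figure D2:**
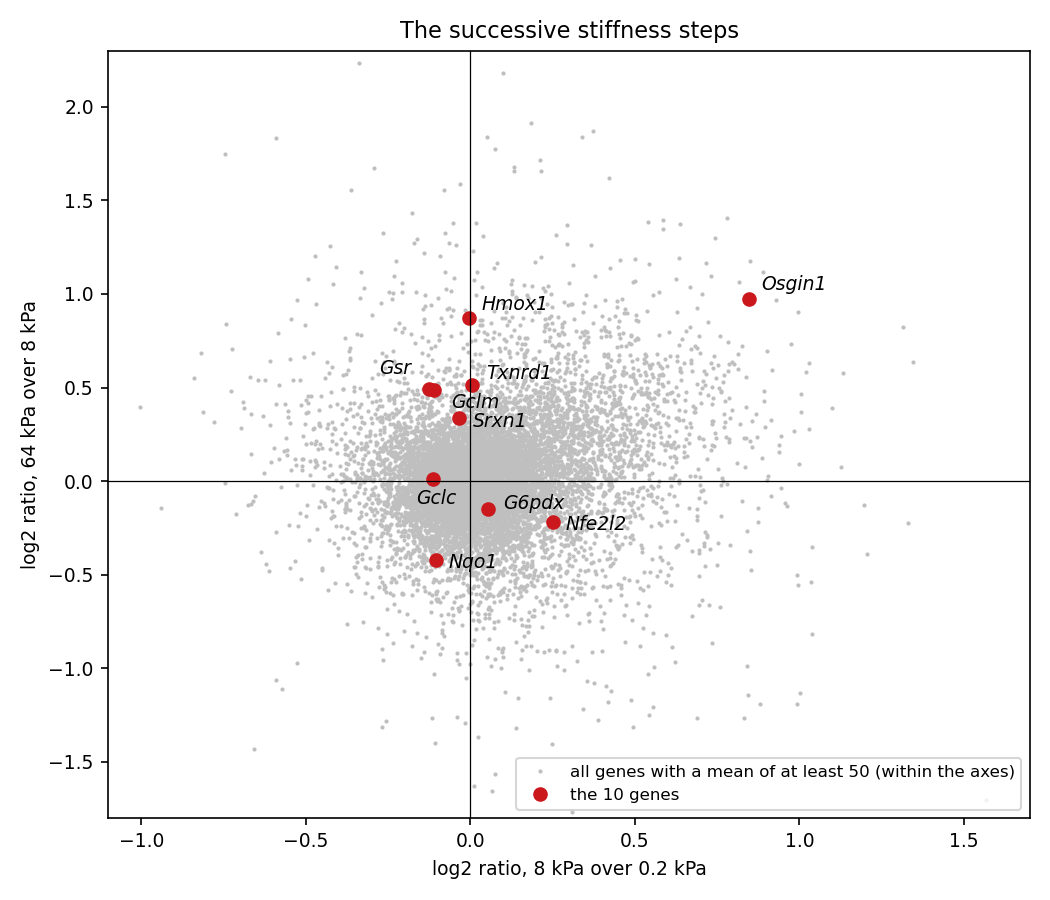
Log2 ratio of the 8 over the 0.2 kPa library (horizontal axis) against that of the 64 over the 8 kPa library (vertical axis) for all genes above the minimum (grey) and the 10 genes (red, named). The axes share the 8 kPa library with opposite signs, and a few grey points lie beyond them; Osgin1 stands apart at 0.85 and 0.97, Hmox1 lies at -0.00 and 0.87, and Nqo1 at -0.10 and -0.42.

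Counting error was small against the larger of these differences for the abundant genes. Intervals held 0 for Nfe2l2 between stiff and soft, for Hmox1, Txnrd1 and G6pdx between soft and intermediate, and for Gclc between intermediate and stiff. The counting interval of the stiff to soft ratio lay above 0 for 6 of the 10 genes and below 0 for 3, while it did so for 31.3% and 25.9% of all genes. From soft to intermediate it lay above 0 for 2 and below 0 for 5, against 21.8% and 13.5% of all genes. From intermediate to stiff it lay above 0 for 6 and below 0 for 3, against 26.3% and 22.0%. Such an interval does not hold the variation between cultures.

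**Figure D3:**
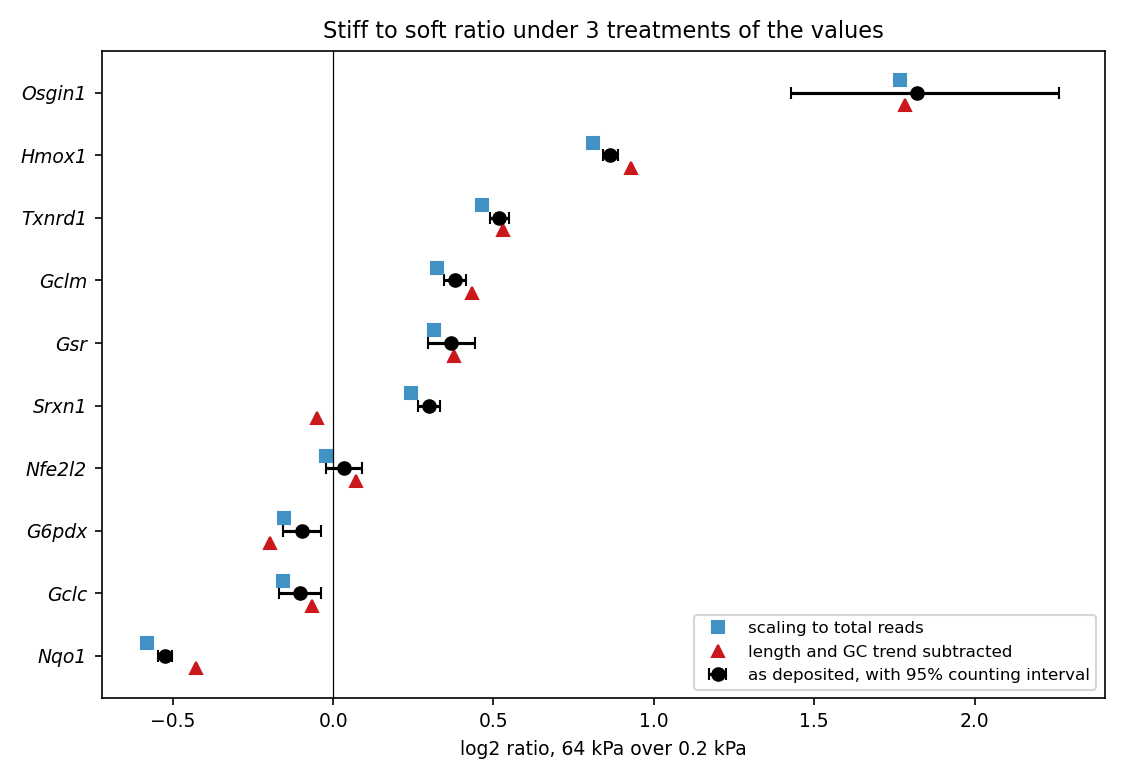
Log2 ratio of the 64 over the 0.2 kPa library (horizontal axis) for each of the 10 genes (rows) as deposited (black, with the 95% counting interval), scaled to total reads (blue squares) and with the length and GC trend subtracted (red triangles). Srxn1 changes sign with the trend subtracted (from 0.30 to -0.05), Nfe2l2 changes sign with scaling to total reads (from 0.03 to -0.02), and the other 8 genes keep theirs under these settings.

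Levels of different genes were compared per kilobase of canonical transcript. In the soft library Nqo1 had 17478 normalized counts per kb and Hmox1 15015, followed by Txnrd1 at 4702, Gclm at 1851, Srxn1 at 1816, Nfe2l2 at 1440, Gclc at 1151, Gsr at 1043, G6pdx at 836 and Osgin1 at 32.1. Gclm and Srxn1 overlapped in their counting intervals, and the other neighbours did not. In the stiff library the order at the top was turned, with Hmox1 at 27338 and Nqo1 at 12151 per kb, and Gsr at 1347 stood above Gclc at 1072. In the intermediate library Nqo1 was at 16273, Hmox1 at 14964 and Txnrd1 at 4719 per kb, while Srxn1 at 1771, Gclm at 1716 and Nfe2l2 at 1716 overlapped in their intervals and could not be ordered. Together the 10 genes took 0.489%, 0.469% and 0.541% of the reads at 0.2, 8 and 64 kPa.

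Of 11 genes that control NRF2, all above the minimum, 2 were higher in the stiff than in the soft library by at least 0.5 and none lower, beside 11.8% and 3.77% of all genes. Their median log2 ratio was 0.16. Both genes past 0.5 encode small MAF partners. Maff had 1428, 1457 and 2596 normalized counts at 0.2, 8 and 64 kPa (stiff to soft 0.86, interval 0.77 to 0.96), and Mafk had 619, 662 and 1016 (0.71, 0.57 to 0.86). Both were close between soft and intermediate and higher in the stiff library. Mafg, the third small MAF gene, was at 2679, 2834 and 2820, a ratio of 0.07 (-0.00 to 0.15), and -0.49 after subtraction of the trend. Maff reads per Mafg read were 0.533, 0.514 and 0.920.

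Keap1 stood at 1809, 1659 and 1788 normalized counts at 0.2, 8 and 64 kPa, with a stiff to soft log2 ratio of -0.02 (-0.11 to 0.08), or -0.17 after subtraction of the trend. Cul3, the ligase scaffold, had a ratio of 0.07, or 0.17 after the subtraction, and Bach1, the competing repressor, of 0.16 (0.05 to 0.28). Sqstm1, which encodes p62, a protein that draws KEAP1 into autophagy and is itself an NRF2 target, had 14380, 14560 and 18680 normalized counts, a ratio of 0.38 (0.35 to 0.41).

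A wider list of 27 genes known as NRF2 targets held 26 that passed the minimum. Gpx2, a glutathione peroxidase of epithelia, had 0 reads in every library, which allows up to 3 reads in each. None of the 26 reached a log2 ratio of 1 between stiff and soft, 1 was higher by at least 0.5 and none was lower, beside 11.8% and 3.77% of all genes. Of the 26, 21 lay above 0, as did 6064 of all 11873 genes. From soft to intermediate 12 of the 26 did, as did 6348 of all genes. With the trend removed 3 of the 26 were past 0.5 between stiff and soft, beside 8.17% of all genes: Gstm1 (0.94), Taldo1 (0.54) and Fth1 (0.51). As deposited the median of the 26 was 0.12, between that of all genes and that of the 10. From soft to intermediate the median was -0.02 and from intermediate to stiff it was 0.16.

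The gene past 0.5 was Gstm1, a glutathione transferase, at 2053, 2474 and 3734 normalized counts at 0.2, 8 and 64 kPa (stiff to soft 0.86). Taldo1, transaldolase, had a ratio of 0.46 and Abcc1, an exporter of glutathione conjugates, of 0.47, which was 0.14 after subtraction of the trend. The cystine carrier Slc7a11, which feeds glutathione synthesis, was at 9801, 9939 and 10795, a ratio of 0.14 (0.10 to 0.18). The lowest ratio was that of Mgst1, a membrane-bound glutathione transferase, at -0.24, or -0.09 after subtraction of the trend.

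The median stiff to soft log2 ratio of the 7 genes of the pentose phosphate pathway was -0.08. None reached 0.5 in either direction, beside 11.8% of all genes higher and 3.77% lower. With the trend removed the median was -0.03 and Taldo1 passed 0.5, at 0.54. Pgd, the next NADPH-producing enzyme after the lactonase, had 20046, 20320 and 26624 normalized counts at 0.2, 8 and 64 kPa, a ratio of 0.41 (0.38 to 0.44), while G6pdx was slightly lower. Pgd reads per G6pdx read were 4.06, 3.97 and 5.77. Rpia had the lowest ratio, at -0.19 (-0.40 to 0.01), but after subtraction of the trend it was at -0.10 and G6pdx was lowest, at -0.20.

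Products of Hmox1 action enter iron handling. Of 9 heme and iron genes 1 was higher in the stiff than in the soft library by at least 0.5 and none lower, beside 11.8% and 3.77% of all genes. The ferritin chains Fth1 and Ftl1, which store iron, had stiff to soft log2 ratios of 0.41 (0.40 to 0.41) and 0.43 (0.41 to 0.44), and Fth1 reached 206835, 209713 and 274088 normalized counts at 0.2, 8 and 64 kPa. With the trend removed 3 of the 9 passed 0.5, beside 8.17% of all genes: Slc40a1 (1.40), Tfrc, the transferrin receptor (0.61, and 0.49 as deposited), and Fth1 (0.51). As deposited the gene past 0.5 was Slc40a1, the iron exporter ferroportin, at 593, 571 and 1487 normalized counts and a ratio of 1.33 (1.19 to 1.47). Ferroportin is also made by macrophages, whose markers are given above beside Hmox1, and their part in this value was not tested. The other heme oxygenase, Hmox2, had 1359, 1386 and 1417, a ratio of 0.06 (-0.05 to 0.17) and of -0.13 with the length and GC trend subtracted.

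Antioxidant enzymes outside the wider NRF2 list gave a median stiff to soft log2 ratio of -0.06 over 20 genes, beside 0.33 for the 10 genes and 0.00 for all genes. Its sign turned with the length and GC trend subtracted, to 0.04, beside 0.22 for the 10 genes. Of the 20, 1 was higher by at least 0.5 and none lower, beside 11.8% and 3.77% of all genes. The count was 0 when scaled to total reads or to the upper quartile, beside 10.4% of all genes in both. It was 2 with the trend removed, beside 8.17% of all genes, when Msrb1, a methionine sulfoxide reductase, was at 0.53. As deposited the gene past 0.5 was Prdx6, a peroxiredoxin that repairs membrane lipids. It had 15611, 14920 and 22524 normalized counts at 0.2, 8 and 64 kPa (0.53, interval 0.50 to 0.56). Prdx5 had the lowest ratio, at -0.37 (-0.40 to -0.34), and the superoxide dismutases Sod1, Sod2 and Sod3 had -0.14, 0.12 and 0.22. No test of the difference between lists was made.

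**Figure D4:**
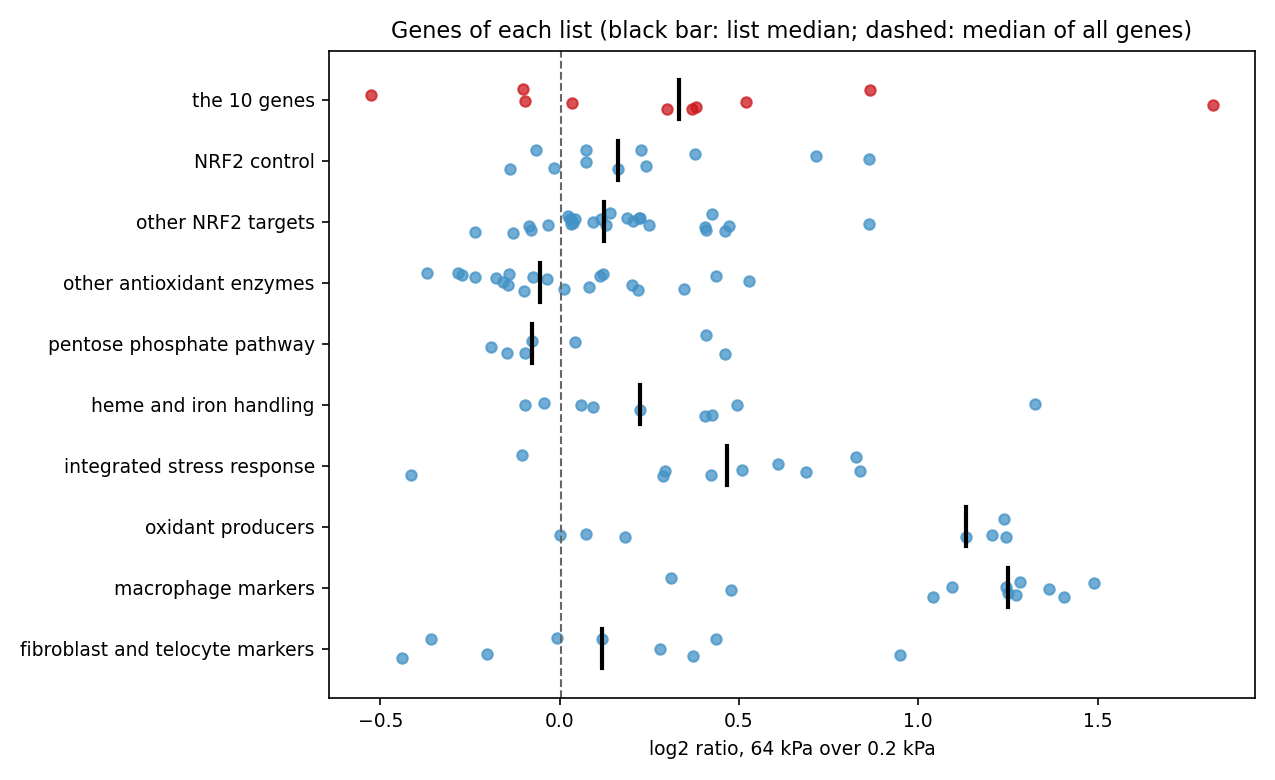
Log2 ratio of the 64 over the 0.2 kPa library (horizontal axis) for the genes of each list above the minimum (points, spread vertically for visibility); black bars are list medians and the dashed line is the median of all 11873 genes. The 10 genes spread from -0.52 to 1.82 around a median of 0.33, and the macrophage markers lie highest, with a median of 1.25.

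The genes most like Osgin1 and Hmox1 over the 3 libraries were sought among the 10589 genes that averaged 100 normalized counts or more, by the distance in log2 units between their successive steps. Nearest to Osgin1 were Acta1, skeletal muscle actin (distance 0.09), Marco, a scavenger receptor of macrophages (0.15), Filip1l (0.16), Fmnl1, a formin (0.17), and Myh9, non-muscle myosin (0.17). Among the nearest to Hmox1 were Dock9 (0.01), Ccn1 (0.03), Dusp10 (0.04) and Maff (0.05). With 3 libraries many genes share a pattern, and nothing more is read from this likeness.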

How the data were processed

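Stranded poly(A) RNA libraries were made with a TruSeq kit, per the labels' protocols. Per the submitters' processing notes the tools included STAR 2.7.9a, featureCounts of Subread 2.0.1 and DESeq2 1.34.0 on GRCm39; annotation and strand setting are not given in the sources used here. The deposited signal is a normalized count, each gene's reads over 1 size factor for its library, and the 3 deposited files were identical. Dividing a column by its smallest value above 0 gave whole reads for 100.0% of values (tolerance 0.01 of a read). With 1 library a level no count test could be run.

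Log2 ratios used a pseudocount of 1, which understates changes of low genes. Counting intervals (95%, exact, Clopper-Pearson) treat a gene's reads in both libraries as a binomial share; amplified reads are not independent molecules. The named genes were the 10, genes of 15 lists written from general knowledge, and the nearest patterns, of which some are not reported here; members and lists were chosen with earlier results of these data known. Lengths, GC content and loci came from GENCODE vM39 by symbol (11630 of 11873 genes). The calls and intervals were run on simulated Poisson counts. These hold no variation between cultures or from amplification, so the run says nothing about either. Promoter sequences came from a RefSeq table and were placed on GRCm39 by exact match. Tables were handled with pandas 2.3.3 and numpy 2.4.6, intervals with scipy 1.17.1 and figures with matplotlib 3.10.9, all in Python 3.11.15. Alternatives were other pseudocounts, scalings, minimum means and thresholds, and subtracting the median ratio of the 300 genes closest in length rank and GC rank.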

Additional observations from a re-analysis of the deposited data

How the results depend on the processing

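No paired analysis was possible because each level had 1 library, and leaving out a replicate was not possible for the same reason. The counts of the 10 genes past a log2 ratio of 1 were the same under the pseudocounts of 0.1 and 10, the other scalings, removal of the length and GC trend, no minimum mean, a minimum of 10, and a threshold of 1.5. With a minimum mean of 200, which leaves out Osgin1, the count was 0 between stiff and soft and 0 for one direction over both steps. At a threshold of 0.5 it was 4 for stiff against soft, 1 for intermediate against soft and 3 for stiff against intermediate. Fewer or more genes pass by construction. At that threshold, in alternatives chosen after seeing the data, the 4 became 3 under scaling to total reads or to the upper quartile (without Txnrd1) and 3 with the trend subtracted (without Nqo1). The 3 became 2 under both scalings (without Txnrd1) and 4 with the trend subtracted (with Gclm).

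The median stiff to soft log2 ratio of the 10 genes was 0.28 when scaled to total reads, 0.28 when scaled to the upper quartile and 0.22 with the length and GC trend subtracted. Scaling to the upper quartile gave -0.056 for intermediate against soft, and the trend subtraction gave 0.34 for stiff against intermediate. No median of the 10 changed sign, and the median of all genes shifted by less than 0.1 under any scaling. Of 30 single ratios 13 stayed inside their counting intervals under every setting. Sign changes were limited to Nfe2l2 and Srxn1 between stiff and soft, Txnrd1, Hmox1 and G6pdx between intermediate and soft, and Gclc between stiff and intermediate. Of all genes, 382 were higher and 46 lower by 1 between stiff and soft, 250 and 43 with the trend subtracted, 2932 and 2895 with no minimum, 595 and 227 at a minimum of 10, 221 and 17 at 200, 1402 and 448 at a threshold of 0.5, and 60 and 11 at 1.5. Between intermediate and soft, 19 and 1 became 1186 and 2460 with no minimum, 124 and 91 at a minimum of 10, 7 and 1 at 200, 468 and 78 at a threshold of 0.5, 2 and 0 at 1.5, and 10 and 0 with a pseudocount of 10. Between stiff and intermediate, 98 and 50 became 2507 and 1397, 257 and 194, and 48 and 24 at those minimums, 644 and 406 at a threshold of 0.5, and 21 and 12 at 1.5. Depth limits Osgin1 most, at 63 reads in the soft library.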

Other observations

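Genes that produce oxidants were also measured. The phagocyte NADPH oxidase makes superoxide, and its membrane subunit Cybb had 1524, 2403 and 3343 normalized counts at 0.2, 8 and 64 kPa, a stiff to soft log2 ratio of 1.13 (1.04 to 1.22). The cytosolic subunits Ncf1 and Ncf4 had ratios of 1.24 and 1.20, while the other membrane subunit, Cyba, was at 0.18. Nox4, the oxidase typical of fibroblasts, was at 303, 271 and 304, a ratio of 0.00 (-0.24 to 0.24), and Xdh, xanthine dehydrogenase, was at 0.07, and at -0.05 with the length and GC trend subtracted. Of 11 macrophage markers 9 were higher by at least 1, beside 3.22% of all genes, and their part in these values was not tested.

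Integrated stress response genes, some of which are shared with the oxidant response, had a median stiff to soft log2 ratio of 0.47 over 10 genes, with 5 higher by at least 0.5 and none lower, beside 11.8% and 3.77% of all genes. The count was 4 when scaled to total reads or to the upper quartile, and with a pseudocount of 10. With the length and GC trend subtracted it was 4 of 9 genes, beside 8.17% of all genes. The macrophage markers, at a median of 1.25, were higher in the same library, and their part was not tested. Atf4, its central transcription factor, had 1615, 1896 and 2601 normalized counts (0.69, interval 0.60 to 0.78). Trib3, a pseudokinase, was at 0.84 and Atf3 at 0.83, while Ddit4, an inhibitor of mTORC1, was at -0.41 (-0.48 to -0.35).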
